A study of Saccharomyces cerevisiae with 10 samples.

Results

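Peroxide, thioredoxin and glutathione defence in budding yeast was followed through 40 genes over a salt time course. The genes were taken by name from a list, and all 40 were found among the 5989 coding sequences counted and passed the filter on low counts. The cells were Saccharomyces cerevisiae BY4741, a laboratory strain of mating type a that lacks HIS3, LEU2, MET17 and URA3 and is labelled wild type. Cultures grew at 30 °C in synthetic complete medium to mid-log phase, KCl was added to 1.5 M, and libraries of poly(A) RNA with random-primed cDNA represent 0, 0.5, 1, 1.5 and 2 h. Each time has 2 libraries, from independent replicate series a and b, and the 0 h libraries, taken without KCl, are the controls for every later time. No unstressed culture of a later time is among the libraries, so time in culture and time in KCl cannot be told apart. Levels are given as CPM, each gene's reads for a fixed number of reads in the library after scaling between libraries. Because of this scaling, levels are relative to the other poly(A) RNA sequenced and are not plain shares of the reads. Fewer cells, less RNA per cell and a change in the rest of the RNA cannot be told apart from them. Values for 2 libraries are given as series a, then series b.

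Cells remove hydrogen peroxide with catalases, which need no reductant, and with peroxiredoxins and glutathione peroxidases, which do. Electrons flow from NADPH through thioredoxin reductase to thioredoxin, or through glutathione reductase to glutathione and the glutaredoxins. In budding yeast the transcription factors Yap1 and Skn7 switch on many of these genes when peroxide oxidises Yap1, and the general stress factors Msn2 and Msn4 switch on others, such as the catalase gene CTT1, during osmotic and other stresses.

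Reads counted per library ranged from 3372373 to 8325291. LEU2 and MET17 had 0 reads in every library and HIS3 had 0 to 7. URA3 had 162 reads in replicate a of 0.5 h and 0 to 5 elsewhere, so that library stood apart from the strain label. All 4 mating type a genes were at least 2-fold lower at 2 h: STE2 went from 966 and 1014 to 360.4 and 352 CPM, MFA1 from 439 and 295 to 40.8 and 50.6 CPM, MFA2 from 434 and 324 to 42.9 and 64.9 CPM and BAR1 from 251 and 247 to 93.1 and 93.3 CPM. Of 4 alpha-cell genes 2 were higher at 2 h, STE3 (from 9.99 and 11.2 to 48.4 and 43.2 CPM) and MF(ALPHA)1 (from 0.929 and 0.914 to 13.3 and 12.5 CPM), while MF(ALPHA)2 (16.7 and 12.1 and then 12.8 and 14.9 CPM) and SAG1 (71.3 and 88.2 and then 70.3 and 69.5 CPM) were not called. Of 5 meiosis and spore genes 2 were higher at 2 h, DIT1 (from 10.2 and 9.60 to 48.4 and 44.4 CPM) and SPO11 (from 4.65 and 5.48 to 18.0 and 20.1 CPM), and IME1, NDT80 and SPS1 were not called. Their part in the results below was not tested. The osmostress genes GPD1, STL1, HSP12 and GPP2 were at 4605 and 4556, 1054 and 1045, 2661 and 2593 and 2101 and 2059.9 CPM at 1 h, against 378 and 373, 16.7 and 15.5, 68.1 and 61.9 and 195 and 202 CPM at 0 h. At 0.5 h they stood at 375.9 and 383.5, 15.6 and 14.4, 158.8 and 155 and 153.5 and 148.8 CPM. Of the 4, 1 was called higher and 1 lower then.

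Of the defence genes more were lower than higher at 0.5 h, about as many were higher as not called at 1 h, and most were higher from 1.5 h. A gene was called where edgeR's quasi-likelihood test gave an adjusted p under 0.05 over all 5943 genes tested. At 0.5 h, 6 of the 40 were higher and 16 lower than at 0 h, where 26.0% and 27.6% of all genes were called in those directions. At 1 h, 19 were higher (28.9% of all genes) and 4 lower (28.1%). At 1.5 h, 30 were higher (37.5% of all genes) and 3 lower (39.1%), and at 2 h, 29 were higher (37.8%) and 2 lower (37.0%). The higher calls at 1, 1.5 and 2 h covered 47.5%, 75.0% and 72.5% of the 40 genes. The median log2 fold change of the 40 at 0.5, 1, 1.5 and 2 h was -0.08, 0.21, 0.90 and 0.92, while that of all genes lay between -0.01 and 0.01.

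**Figure D1:**
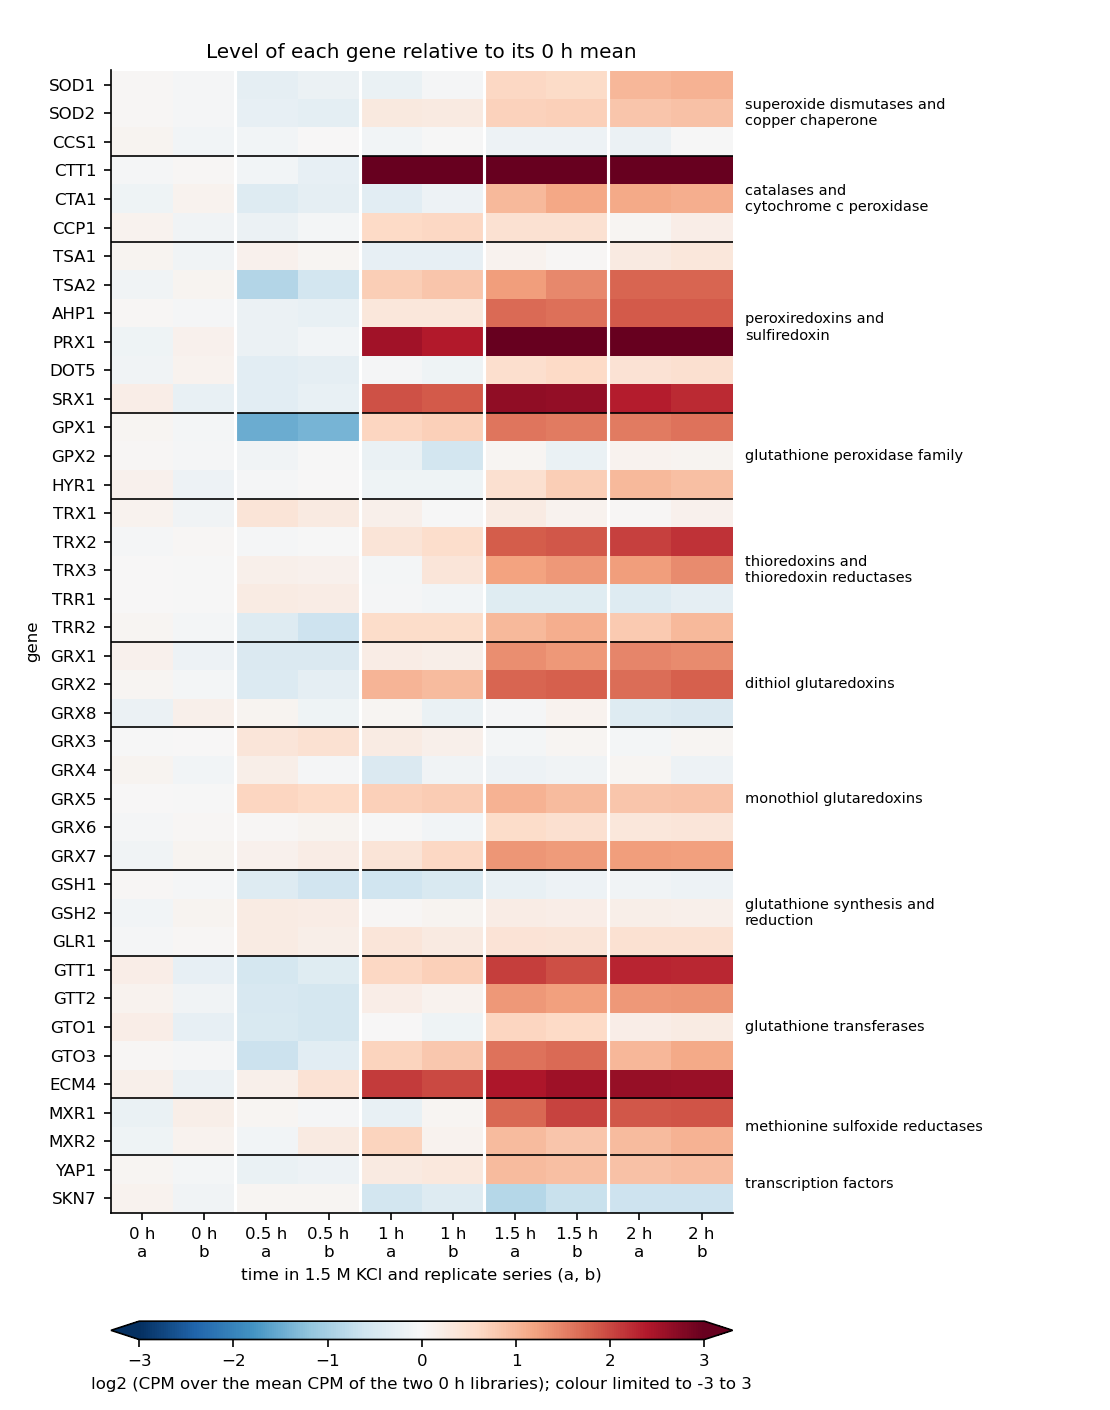
Each row is a gene, grouped by role, and each column a library. Colour gives the log2 ratio of its CPM to the gene's mean at 0 h, limited to -3 and 3. CTT1, PRX1, SRX1 and ECM4 turn dark red from 1 h, most other rows redden at 1.5 h, and CCS1, GRX4, GRX8, GPX2 and TRX1 stay pale.

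Changes of at least 2-fold were nearly all upward. At 1.5 h, 18 genes were called at least 2-fold higher, as were 14.3% of all genes, and 18 were at 2 h, as were 13.1%. At 1 h the 4 genes past this size were CTT1, PRX1, SRX1 and ECM4 (7.02% of all genes). GPX1 at 0.5 h was the 1 gene called at least 2-fold lower at any of the 4 times against 0 h (3.43% of all genes then, and 1.85%, 12.5% and 10.1% at 1, 1.5 and 2 h). The mean level was highest at 2 h for 17 genes and at 1.5 h for 14, and it was lowest at 0.5 h for 20. Reads of the 40 genes made up 0.465% and 0.445% of all reads at 0 h, 0.415% and 0.417% at 0.5 h, then 0.595% and 0.594% at 1 h. Their share was 1.15% and 1.14% at 1.5 h, and it stood at 1.18% and 1.20% at 2 h. Over the whole course 37 of the 40 changed by the test of all 4 time terms, as did 91.7% of all genes. CCS1, GRX4 and GRX8 did not pass it (adjusted p = 0.30, 0.22 and 0.14).

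The step between 1 h and 1.5 h held the most calls. Between these times 30 genes rose (34.1% of all genes) and 4 fell (34.0%). Between 0.5 h and 1 h, 19 rose (32.9%) and 8 fell (32.1%). From 1.5 h to 2 h, 8 rose (15.5%) and 5 fell (9.47%). The 8 that still rose were SOD1, SOD2, TSA1, TSA2, AHP1, TRX2, HYR1 and GTT1, and the 5 that fell back were CTT1, CCP1, PRX1, GTO1 and GTO3. The 8 became 2 without 2 h replicate b, 4 without 1.5 h replicate b and 5 without 2 h replicate a, and the 5 became 3, 2 and 3. The 8 falls between 0.5 h and 1 h became 5 without 0.5 h replicate b and 4 without 1 h replicate b, and the 4 falls between 1 h and 1.5 h became 2 without 1 h replicate a, 2 without 1.5 h replicate a and 1 without 1 h replicate b.

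**Figure D2:**
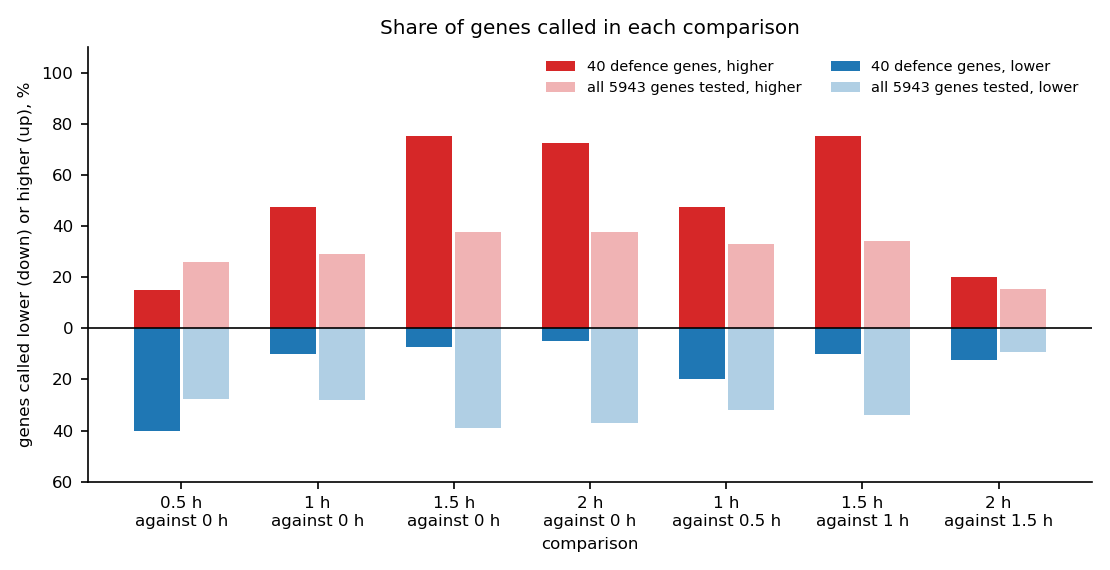
Bars give the percent of genes called higher (up) or lower (down) in each comparison, for the 40 defence genes in full colour and all 5943 genes tested in pale colour. The higher bars of the defence genes reach 75.0% at 1.5 h against 0 h, where the pale bar is at 37.5%.

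Several of the 0.5 h calls against 0 h were lost when 1 library of either time was left out. Such a fit has 1 library at that time, and it also called fewer of all genes. With all libraries kept, DESeq2 and DESeq2's size factors in edgeR each gave 12 falls in place of 16, with 6 and 7 rises. Both lost the falls of CTA1, DOT5, GTO3 and YAP1 (-0.27, -0.23, -0.40 and -0.13 in DESeq2). Of the 0.5 h calls among all genes, 55.0% and 55.7% were rises in these 2 runs, against 48.5% in the main fit. Without 0.5 h replicate a, the library with URA3 reads, 10 genes in place of 16 were lower at 0.5 h and 7 in place of 6 were higher, and 6 in place of 8 fell from 0.5 h to 1 h. The calls lost with it were those of CTA1, DOT5, GTO3, GTT1, SOD1 and YAP1 (-0.27, -0.26, -0.32, -0.37, -0.18 and -0.16 without it). Of these, CTA1, DOT5 and YAP1 were also not called without 0.5 h replicate b (-0.38, -0.31 and -0.20). Of the 16, the 8 that were called lower under every alternative run were SOD2, TSA2, AHP1, TRR2, GRX1, GPX1, GSH1 and GTT2. Of the 6 that rose, TRR1, GRX3 and GRX5 were called under every alternative.

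The catalases and cytochrome c peroxidase, which break down hydrogen peroxide without thioredoxin or glutathione, held the largest change of the 40 genes. Of the 3, 2 were higher at 1 h, 3 at 1.5 h and 2 at 2 h (28.9%, 37.5% and 37.8% of all genes). CTT1 (YGR088W, chromosome VII, 654634 to 656322, plus strand of build R64) encodes the cytosolic catalase, and CTA1 (YDR256C) the catalase of peroxisomes and mitochondria. CTT1 stood at 32.8 and 34.7 CPM at 0 h, 31.8 and 28.6 CPM at 0.5 h, 924 and 948 CPM at 1 h, 1043 and 1061 CPM at 1.5 h, and 939 and 913 CPM at 2 h. It was at its low level at 0 and 0.5 h and at about its full level in both 1 h libraries, with no overlap between those times. Its log2 fold change, given with its standard error (SE), was 4.79 (SE 0.07, adjusted p = 8.9e-21) at 1 h and 4.96 (SE 0.07, adjusted p = 3.5e-21) at 1.5 h, a 31.1-fold rise, and it fell by 0.18 on the log2 scale from 1.5 h to 2 h (SE 0.05, adjusted p = 0.013).

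CTA1 rose later and less. Its levels were 41.1 and 48.7 CPM at 0 h, 34.6 and 37.3 CPM at 0.5 h, 36.1 and 40.2 CPM at 1 h, 88.7 and 99.7 CPM at 1.5 h, and 98.8 and 95.7 CPM at 2 h. The libraries of 1.5 and 2 h, which overlapped each other, lay above all of 0, 0.5 and 1 h, and those of 1 h did not exceed those of 0 h. The log2 fold changes were 1.08 (SE 0.09, adjusted p = 1.7e-09) at 1.5 h and, at 2 h, 1.11 (SE 0.09, adjusted p = 1.6e-09). At 1 h it was -0.21 and was called only without 0 h replicate a (-0.33, adjusted p = 0.041), and at 0.5 h -0.31, a call lost without 0 h replicate b or either 0.5 h library (-0.18, adjusted p = 0.29, -0.27, adjusted p = 0.1 and -0.38, adjusted p = 0.053). Of the reads of both catalase genes CTT1 took 44.3% and 41.6% at 0 h and 96.2% and 95.9% at 1 h. Its share was still 90.5% and 90.5% at 2 h.

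The upstream windows of both catalase genes are shown, CTT1 having the largest rise at 1.5 h, with matches to 2 short motifs. One is the stress response element (AGGGG, or CCCCT on the other strand), which Msn2 and Msn4 bind, and the other a Yap1 site (TTACTAA, or TTAGTAA). Each window runs from 400 to 101 bases before the start codon in build R64, read 5′ to 3′ on the strand of the gene, with matches in capitals. The CTT1 window (chrVII:654234-654533, plus strand) held 3 stress response elements and no Yap1 site. The CTA1 window (chrIV:969781-970080, minus strand), which reaches into the coding sequence of RKM4, held 1 Yap1 site and no stress response element.
CTT1: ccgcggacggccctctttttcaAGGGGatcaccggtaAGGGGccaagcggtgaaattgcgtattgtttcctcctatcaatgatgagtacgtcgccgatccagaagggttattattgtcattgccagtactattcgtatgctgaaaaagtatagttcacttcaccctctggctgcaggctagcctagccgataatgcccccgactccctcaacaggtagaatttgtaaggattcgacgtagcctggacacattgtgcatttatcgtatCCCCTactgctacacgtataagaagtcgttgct
CTA1: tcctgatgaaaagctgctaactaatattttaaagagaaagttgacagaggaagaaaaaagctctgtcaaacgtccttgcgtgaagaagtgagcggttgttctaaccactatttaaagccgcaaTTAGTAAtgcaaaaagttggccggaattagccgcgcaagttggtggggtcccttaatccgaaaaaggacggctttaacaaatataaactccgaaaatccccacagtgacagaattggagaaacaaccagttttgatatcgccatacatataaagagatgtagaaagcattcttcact

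CCP1, the cytochrome c peroxidase of the mitochondrial intermembrane space, peaked early. Its levels were 174 and 151 CPM at 0 h, 144 and 155 CPM at 0.5 h, 244 and 250.1 CPM at 1 h, 225 and 222 CPM at 1.5 h, and 169 and 186 CPM at 2 h. The 1 h and 1.5 h libraries lay above those of 0 h, and those of 2 h overlapped them. The log2 fold change was 0.61 (SE 0.07, adjusted p = 3.5e-07) at 1 h and 0.46 (SE 0.07, adjusted p = 4.3e-06) at 1.5 h. At 2 h it was 0.14 and not called, but it was called without 0 h replicate a or 2 h replicate a (0.25, adjusted p = 0.008 and 0.20, adjusted p = 0.029), and at 0.5 h (-0.11) it was called lower without 0 h replicate b (-0.21, adjusted p = 0.03).

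**Figure D3:**
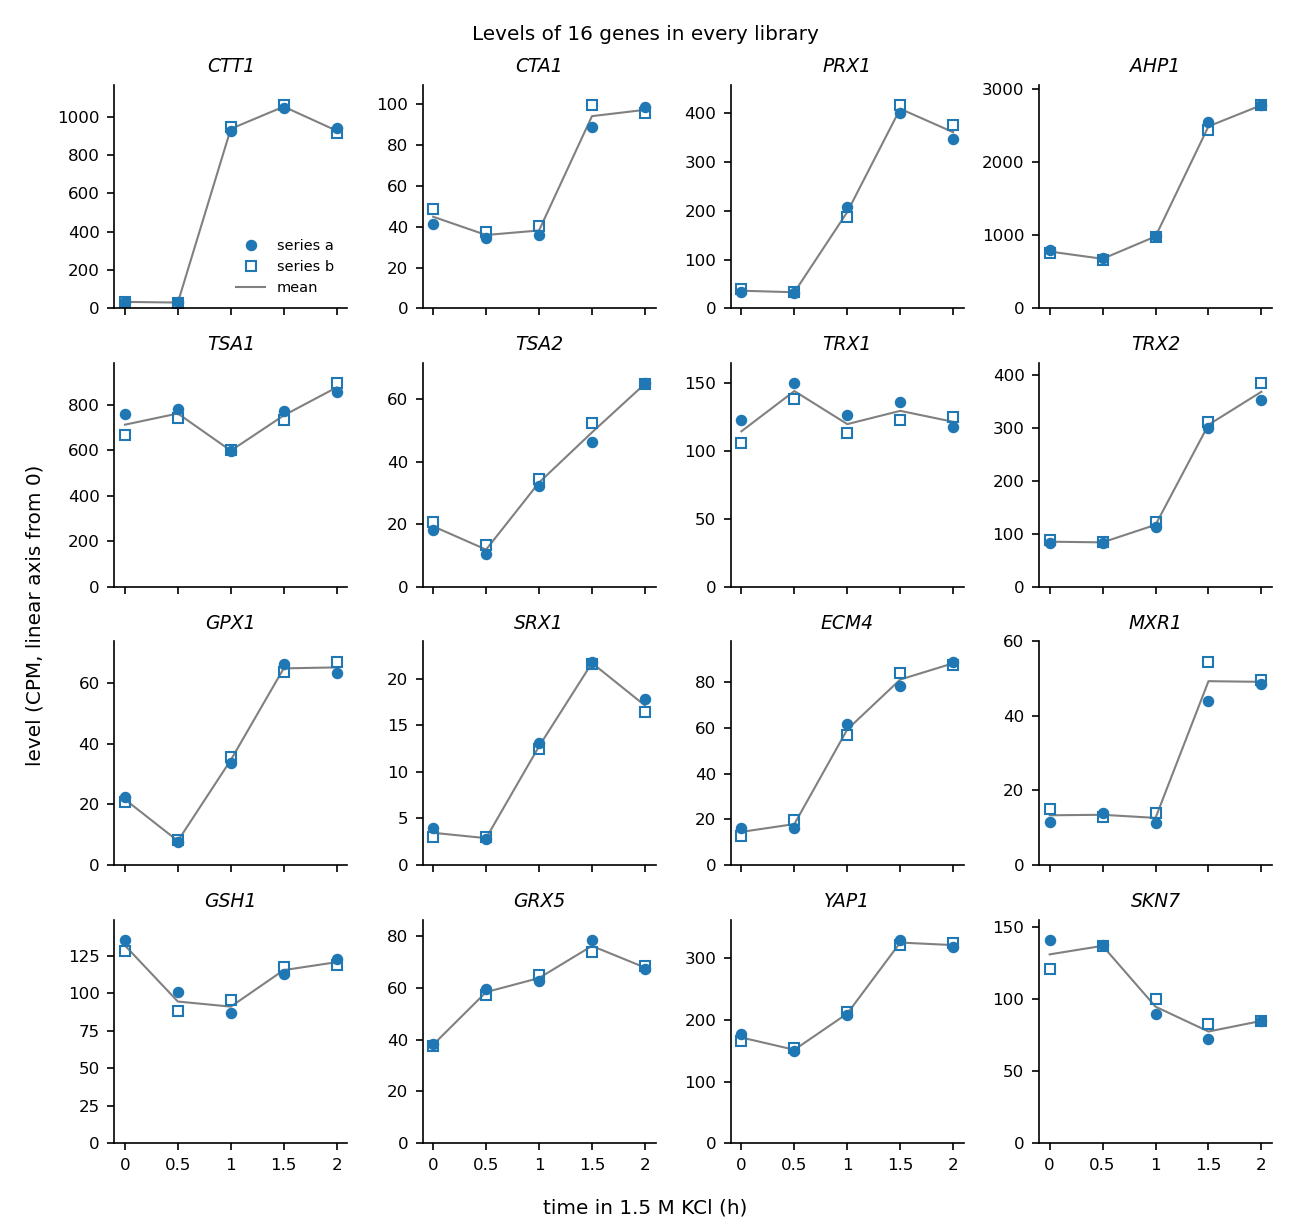
Points give CPM in each library against hours in 1.5 M KCl for 16 genes, with filled circles for series a, open squares for series b and lines through the means; each panel has its own linear axis from 0. CTT1 and PRX1 rise between 0.5 h and 1 h, MXR1, AHP1, TRX2 and CTA1 rise mainly between 1 h and 1.5 h, GPX1 and TSA2 dip at 0.5 h, and SKN7 declines.

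Both superoxide dismutase genes rose and the gene of the SOD1 copper chaperone was not called. These enzymes turn superoxide into peroxide, SOD1 in the cytosol with copper and zinc and SOD2 in mitochondria with manganese. SOD1 stood at 652 and 622 CPM at 0 h, 528 and 563 CPM at 0.5 h, 556 and 617 CPM at 1 h, 972 and 952 CPM at 1.5 h, and 1275 and 1321 CPM at 2 h. Both 1.5 h libraries and both 2 h libraries lay above all earlier ones, and the log2 fold change was 0.59 (SE 0.06, adjusted p = 1.6e-08) at 1.5 h and 1.03 (SE 0.06, adjusted p = 3.9e-12) at 2 h. SOD2 was at 224 and 212 CPM at 0 h, 185 and 179 CPM at 0.5 h, 267 and 264 CPM at 1 h, 352 and 355 CPM at 1.5 h, and 391 and 398 CPM at 2 h. In both libraries of 1 h it was already higher (0.28, SE 0.06, adjusted p = 0.00024), and by 2 h the change was 0.86 (SE 0.05, adjusted p = 1.7e-11). At 0.5 h both were lower (-0.22 for SOD1 and -0.26 for SOD2), the SOD1 call without 0.5 h replicate a being lost (-0.18, adjusted p = 0.052), and at 1 h SOD1 (-0.12) was called lower only without 1 h replicate b (-0.19, adjusted p = 0.032) or with upper-quartile scaling (-0.14, adjusted p = 0.046). CCS1, which inserts copper into the SOD1 protein, had means between 103 and 115 CPM and log2 fold changes from -0.15 to -0.03. Its value at 1.5 h was -0.24, adjusted p = 0.017 without 0 h replicate b, and with library size alone it was called higher (0.17, adjusted p = 0.042, and 0.22, adjusted p = 0.012 at 2 h).

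The peroxiredoxins divided into strongly rising and nearly level genes. With sulfiredoxin they number 6, of which 4 were higher and 1 lower at 1 h (28.9% and 28.1% of all genes). At 1.5 h 5 were higher (37.5%) and at 2 h 6 (37.8%). PRX1, the peroxiredoxin of mitochondria, had the second largest rise of the 40 genes at 1.5 h. It stood at 33.0 and 39.3 CPM at 0 h, 31.8 and 34.0 CPM at 0.5 h, 207 and 188 CPM at 1 h, 401 and 417 CPM at 1.5 h, and 347 and 375 CPM at 2 h. The 0.5 h libraries overlapped those of 0 h, and each later library was at least 4-fold above every 0 h library. Its log2 fold change was 2.44 (SE 0.09, adjusted p = 1.1e-14) at 1 h and 3.50 (SE 0.08, adjusted p = 3.2e-18) at 1.5 h. SRX1, sulfiredoxin, which repairs overoxidised peroxiredoxin, was the lowest of the 40 per kilobase of coding length at 0 h (9.01 CPM per kilobase). It went through 3.95 and 2.97 CPM at 0 h, 2.79 and 2.98 CPM at 0.5 h, 13.1 and 12.4 CPM at 1 h, 21.8 and 21.5 CPM at 1.5 h, and 17.8 and 16.4 CPM at 2 h, with no overlap between the 1 h libraries and those before, and log2 fold changes of 1.86 (SE 0.24, adjusted p = 1.7e-06) at 1 h and 2.64 (SE 0.21, adjusted p = 6.4e-10) at 1.5 h.

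AHP1 and TSA1 encode abundant cytosolic peroxiredoxins. Per kilobase, AHP1 was the highest of the 40 genes at 0 h (1466 CPM per kilobase), ahead of SOD1 (1369.7) and TSA1 (1207), and the same 3 led in this order at 1.5 h (4695, 2069 and 1276). The CPM of AHP1 was 797 and 759 CPM at 0 h, 688 and 669 CPM at 0.5 h, 992 and 979 CPM at 1 h, 2547 and 2439 CPM at 1.5 h, and 2779 and 2787 CPM at 2 h. All libraries from 1 h lay above those of 0 h, and the log2 fold change was 0.34 (SE 0.05, adjusted p = 8.7e-06) at 1 h, 1.68 (SE 0.05, adjusted p = 1.1e-16) at 1.5 h and 1.84 (SE 0.05, adjusted p = 3.9e-17) at 2 h. TSA1 stayed within a 599 to 878 CPM range of means. Its level was 759.9 and 667 CPM at 0 h, 784 and 742 CPM at 0.5 h, 598 and 600.2 CPM at 1 h, 773 and 735 CPM at 1.5 h, and 859 and 896 CPM at 2 h, lower in both 1 h libraries and higher in both 2 h libraries than in those of 0 h. The log2 fold change was -0.25 (SE 0.06, adjusted p = 0.002) at 1 h and 0.30 (SE 0.06, adjusted p = 0.00021) at 2 h. Without 0 h replicate a the 1 h fall was not called (-0.16, adjusted p = 0.052), and rises were called at 0.5 h (0.19, adjusted p = 0.021) and 1.5 h (0.17, adjusted p = 0.021), the latter also with library size alone (0.40, adjusted p = 3.7e-06) and upper-quartile scaling (0.17, adjusted p = 0.021).

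TSA2, the minor paralog of TSA1, moved further than TSA1 at each time. It stood at 18.1 and 20.6 CPM at 0 h, 10.4 and 13.3 CPM at 0.5 h, 32.2 and 34.5 CPM at 1 h, 46.2 and 52.5 CPM at 1.5 h, and 65.1 and 64.7 CPM at 2 h. Both 0.5 h libraries were below, and all later ones above, those of 0 h. Log2 fold changes were -0.66 (SE 0.16, adjusted p = 0.0021) at 0.5 h, 0.80 (SE 0.14, adjusted p = 5.4e-05) at 1 h and 1.74 (SE 0.12, adjusted p = 5.8e-11) at 2 h. Of the reads of both genes TSA2 took 2.33% (1.84 to 2.90%) and 2.99% (2.41 to 3.66%) at 0 h and 1.31% (0.961 to 1.76%) and 1.76% (1.43 to 2.14%) at 0.5 h. By 2 h it took 7.04% (6.22 to 7.94%) and 6.74% (6.22 to 7.28%), with exact 95% binomial intervals that cover counting error only. DOT5, a nuclear thiol peroxidase, was at 39.7 and 45.9 CPM at 0 h, 34.6 and 35.8 CPM at 0.5 h, 41.9 and 39.1 CPM at 1 h, 61.1 and 64.4 CPM at 1.5 h, and 57.5 and 59.5 CPM at 2 h. It was higher at 1.5 h (0.56, SE 0.09, adjusted p = 1.3e-05) and 2 h (0.46, SE 0.09, adjusted p = 0.00018), and its value at 0.5 h (-0.28) was not called without 0 h replicate b (-0.17, adjusted p = 0.3) or without either 0.5 h library (-0.26, adjusted p = 0.086 and -0.31, adjusted p = 0.08).

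In the glutathione peroxidase family, GPX1 had the deepest fall of the 40 genes at 0.5 h and then rose above its starting level. It and HYR1 were the 2 of 3 called higher at 1.5 and 2 h (37.5% and 37.8% of all genes). Its levels were 22.5 and 20.8 CPM at 0 h, 7.66 and 8.27 CPM at 0.5 h, 33.6 and 35.7 CPM at 1 h, 66.3 and 63.6 CPM at 1.5 h, and 63.3 and 67.2 CPM at 2 h. The 0.5 h libraries were far below those of 0 h, and all later libraries were above them. Log2 fold changes were -1.43 (SE 0.16, adjusted p = 3.5e-07) at 0.5 h, 0.69 (SE 0.12, adjusted p = 5.7e-05) at 1 h, 1.58 (SE 0.10, adjusted p = 2.2e-11) at 1.5 h and 1.60 (SE 0.10, adjusted p = 2.5e-11) at 2 h. HYR1, which encodes the peroxide sensor that oxidises Yap1, was at 51.1 and 41.8 CPM at 0 h, 45.5 and 47.2 CPM at 0.5 h, 42.8 and 42.7 CPM at 1 h, 64.5 and 76.9 CPM at 1.5 h, and 91.5 and 87.0 CPM at 2 h. It was first called at 1.5 h (0.63, SE 0.10, adjusted p = 1.2e-05) and was highest at 2 h (0.93, SE 0.10, adjusted p = 5.6e-08). GPX2 was at 84.8 and 81.3 CPM at 0 h, 77.1 and 82.9 CPM at 0.5 h, 71.9 and 57.0 CPM at 1 h, 86.5 and 72.5 CPM at 1.5 h, and 89.7 and 87.7 CPM at 2 h. It was lower at 1 h (-0.41, SE 0.10, adjusted p = 0.0026), a call lost without 1 h replicate b (-0.21, adjusted p = 0.18). At 1.5 h it stood at -0.09 and at 2 h at 0.09, neither of them called, although with library size alone it was called higher at both (0.23, adjusted p = 0.036 and 0.37, adjusted p = 0.0018).

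Thioredoxins reduce peroxiredoxins and methionine sulfoxide reductases, and thioredoxin reductases recharge them from NADPH. Of these 5 genes 3 were higher and 1 lower at 1.5 h (37.5% and 39.1% of all genes) and at 2 h (37.8% and 37.0%). TRX1 and TRX2 encode the cytosolic thioredoxins, near relatives that exchanged places in abundance. TRX2 stood at 82.9 and 87.5 CPM at 0 h, 83.6 and 84.4 CPM at 0.5 h, 112 and 122 CPM at 1 h, 301 and 312 CPM at 1.5 h, and 353 and 385 CPM at 2 h. Its 0 and 0.5 h libraries lay together, those of 1 h were higher, and those of 1.5 and 2 h were higher again. The log2 fold change was 0.47 (SE 0.08, adjusted p = 2.7e-05) at 1 h, 1.85 (SE 0.07, adjusted p = 2e-15) at 1.5 h and 2.12 (SE 0.07, adjusted p = 3.4e-16) at 2 h. TRX1 stood at 123 and 106 CPM at 0 h, 150.2 and 139 CPM at 0.5 h, 127 and 113 CPM at 1 h, 136 and 123 CPM at 1.5 h, and 118 and 125 CPM at 2 h, and only its 0.5 h libraries lay wholly above those of 0 h.

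TRX1 was called higher at 0.5 h (0.32, SE 0.08, adjusted p = 0.0021). Its log2 fold changes at 1, 1.5 and 2 h were 0.05, 0.17 and 0.10, none of them called. The 0.5 h call was lost without 0 h replicate b (0.22, adjusted p = 0.058), and the 1.5 h value was called without 0 h replicate a (0.27, adjusted p = 0.014) or 1.5 h replicate b (0.25, adjusted p = 0.026) and under 4 further alternatives. These were the replicate block (0.18, adjusted p = 0.027), the 4 libraries of both times alone (0.20, adjusted p = 0.039), upper-quartile scaling (0.25, adjusted p = 0.0081) and library size alone (0.49, adjusted p = 1.2e-05). Of the reads of both genes TRX2 took 40.2% (37.0 to 43.6%) and 45.2% (41.8 to 48.6%) at 0 h and 35.8% (32.8 to 38.8%) and 37.8% (35.5 to 40.2%) at 0.5 h. The share was 46.9% (43.5 to 50.3%) and 51.9% (49.5 to 54.3%) at 1 h, near equality, and 68.8% (66.8 to 70.7%) and 71.7% (70.3 to 73.1%) at 1.5 h. At 2 h it was 74.9% (72.8 to 76.9%) and 75.5% (74.2 to 76.7%). The windows of the pair are shown as those of near relatives. The TRX2 window held 2 Yap1 sites and the TRX1 window none. These sites lay 217 to 211 and 181 to 175 bases before the TRX2 start codon. Neither window held a stress response element. The TRX2 window (chrVII:913328-913627, minus strand) reaches into YGR210C and the TRX1 window (chrXII:232114-232413, minus strand) into PDC1.
TRX2: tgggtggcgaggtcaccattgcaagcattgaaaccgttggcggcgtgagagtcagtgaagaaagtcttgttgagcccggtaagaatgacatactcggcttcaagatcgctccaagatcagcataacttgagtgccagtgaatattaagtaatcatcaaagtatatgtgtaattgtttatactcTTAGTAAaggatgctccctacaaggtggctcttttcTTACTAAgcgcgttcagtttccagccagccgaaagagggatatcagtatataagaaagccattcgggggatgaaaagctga
TRX1: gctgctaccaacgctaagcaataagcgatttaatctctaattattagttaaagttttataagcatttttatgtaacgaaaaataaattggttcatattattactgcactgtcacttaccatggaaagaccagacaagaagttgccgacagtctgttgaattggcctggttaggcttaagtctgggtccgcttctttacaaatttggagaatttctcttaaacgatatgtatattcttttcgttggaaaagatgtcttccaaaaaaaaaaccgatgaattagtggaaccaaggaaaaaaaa

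The mitochondrial thioredoxin system rose on both sides, thioredoxin and reductase, while the cytosolic reductase gene fell. TRX3, the mitochondrial thioredoxin, was at 19.5 and 19.0 CPM at 0 h, 21.4 and 20.9 CPM at 0.5 h, 18.6 and 24.9 CPM at 1 h, 44.2 and 47.2 CPM at 1.5 h, and 45.8 and 51.8 CPM at 2 h. Its 1.5 and 2 h libraries lay above all others, with log2 fold changes of 1.26 (SE 0.13, adjusted p = 3.3e-08) and 1.37 (SE 0.13, adjusted p = 1.1e-08). TRR2, the mitochondrial reductase, was at 55.8 and 51.4 CPM at 0 h, 41.1 and 35.0 CPM at 0.5 h, 78.6 and 78.3 CPM at 1 h, 105 and 115 CPM at 1.5 h, and 91.8 and 104 CPM at 2 h. It was lower at 0.5 h (-0.52, SE 0.11, adjusted p = 0.00055), higher at 1 h (0.55, SE 0.10, adjusted p = 8.2e-05) and highest at 1.5 h (1.04, SE 0.09, adjusted p = 1.7e-09). TRR1, the cytosolic reductase, was at 329 and 327 CPM at 0 h, 386 and 384 CPM at 0.5 h, 322 and 308 CPM at 1 h, 254 and 256 CPM at 1.5 h, and 252 and 271 CPM at 2 h. It was higher at 0.5 h (0.23, SE 0.05, adjusted p = 0.0014) and lower at 1.5 h (-0.36, SE 0.06, adjusted p = 6.2e-06) and 2 h (-0.32, SE 0.06, adjusted p = 3.3e-05), the latter falls not being called with library size alone (-0.04, adjusted p = 0.47 and -0.04, adjusted p = 0.55). TRR2 took 14.5% and 13.6% of the reads of both reductase genes at 0 h and 29.2% and 30.9% at 1.5 h.

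**Figure D4:**
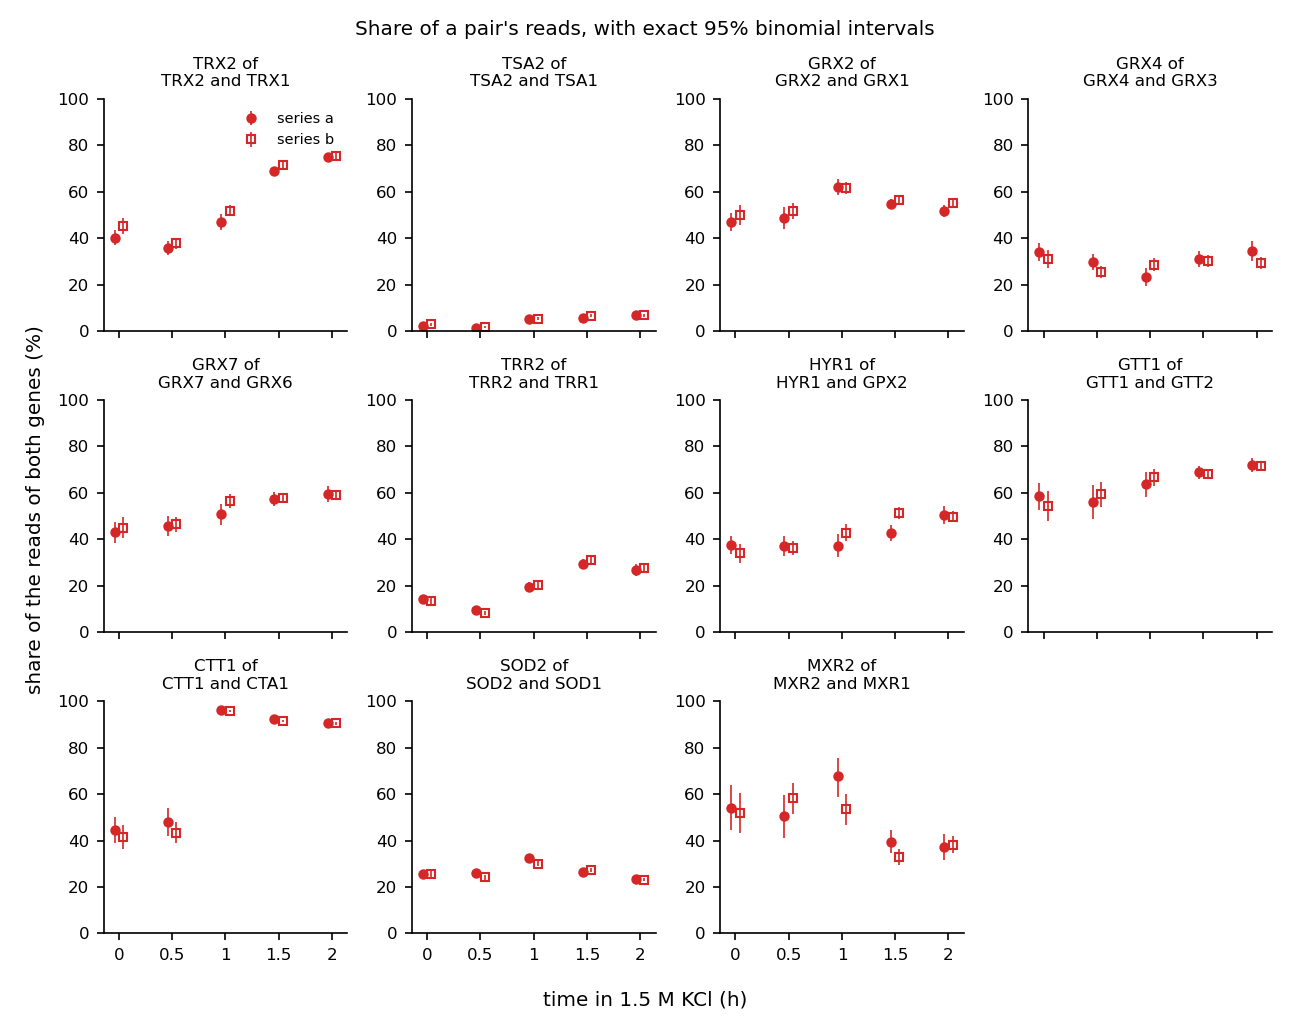
Each panel gives the share of a pair's reads that came from the gene named first, in percent, against hours in 1.5 M KCl, with exact 95% binomial intervals for each library (filled circles, series a; open squares, series b). TRX2 goes from 40.2% and 45.2% to 74.9% and 75.5%, CTT1 lies at 90.5% or above from 1 h, and the GRX4 share of GRX4 and GRX3 stays between 23.2% and 34.5%.

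Glutaredoxins use glutathione to reduce protein disulfides or, in the monothiol forms, to handle iron-sulfur clusters. GRX1 and GRX2, the main dithiol glutaredoxins, both rose. GRX1 was at 80.6 and 66.5 CPM at 0 h, 54.8 and 54.1 CPM at 0.5 h, 85.8 and 82.7 CPM at 1 h, 192 and 182 CPM at 1.5 h, and 204 and 195 CPM at 2 h, with its 0.5 h libraries lowest and its 1.5 and 2 h libraries highest. Its log2 fold change was -0.43 (SE 0.09, adjusted p = 0.0005) at 0.5 h and 1.34 (SE 0.07, adjusted p = 1.7e-12) at 1.5 h, and at 1 h 0.19, called without 0 h replicate a (0.33, adjusted p = 0.0069) or with the replicate block (0.20, adjusted p = 0.032). GRX2 was at 72.0 and 66.5 CPM at 0 h, 52.0 and 57.8 CPM at 0.5 h, 141 and 133 CPM at 1 h, 234 and 238 CPM at 1.5 h, and 219.7 and 239 CPM at 2 h. It rose sooner than GRX1, with 0.98 (SE 0.08, adjusted p = 2.2e-09) at 1 h and 1.77 (SE 0.07, adjusted p = 1e-14) at 1.5 h, and its value at 0.5 h (-0.32) was not called without 0 h replicate a (-0.26, adjusted p = 0.057). GRX2 overlaps the coding sequence of EMI1, and counts of both are uncertain there. EMI1 changed by 0.20 at 1 h (not called) and 0.98 at 1.5 h. GRX8 was low, with means of 10.5 to 14.2 CPM. It was called at none of the 4 times, its value at 2 h being -0.41, or -0.57, adjusted p = 0.031 without 0 h replicate a.

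Of the 5 monothiol glutaredoxin genes, GRX5, GRX6 and GRX7 were higher at 1.5 and 2 h (37.5% and 37.8% of all genes). GRX3 and GRX4 were not called then. GRX5, which serves iron-sulfur cluster assembly in mitochondria, was 1 of the genes that rose at once. It stood at 38.3 and 37.7 CPM at 0 h, 59.4 and 57.1 CPM at 0.5 h, 62.5 and 64.9 CPM at 1 h, 78.4 and 73.7 CPM at 1.5 h, and 67.2 and 68.2 CPM at 2 h, and every library with KCl lay above both without. The log2 fold change was 0.61 (SE 0.09, adjusted p = 1.2e-05) at 0.5 h and 0.99 (SE 0.08, adjusted p = 1.5e-09) at 1.5 h. GRX7, a glutaredoxin of the secretory pathway, was at 47.6 and 54.4 CPM at 0 h, 55.5 and 59.8 CPM at 0.5 h, 66.4 and 79.0 CPM at 1 h, 128 and 124 CPM at 1.5 h, and 121 and 121 CPM at 2 h. It changed by 0.54 (SE 0.10, adjusted p = 8.7e-05) at 1 h and 1.30 (SE 0.09, adjusted p = 3.2e-11) at 1.5 h. Its relative GRX6 was at 63.0 and 66.3 CPM at 0 h, 65.7 and 68.6 CPM at 0.5 h, 64.4 and 60.9 CPM at 1 h, 94.4 and 89.7 CPM at 1.5 h, and 82.4 and 83.1 CPM at 2 h. It changed by 0.50 (SE 0.07, adjusted p = 3.7e-06) at 1.5 h. GRX6 overlaps YDL009C, which changed by 0.86 at 1.5 h, and counts of both are uncertain there. GRX3 and GRX4 encode nuclear and cytosolic iron-sensing glutaredoxins. GRX3 was at 92.7 and 94.6 CPM at 0 h, 119.8 and 129 CPM at 0.5 h, 110.5 and 104 CPM at 1 h, 90.3 and 97.8 CPM at 1.5 h, and 89.4 and 97.2 CPM at 2 h, higher at 0.5 h (0.42, SE 0.07, adjusted p = 8e-05). Its value at 1 h (0.18) was called in the main edgeR fit and lost without any 1 of the 0 h or 1 h libraries (0.15 to 0.24). With all libraries kept, the call was also lost with DESeq2 (0.17, adjusted p = 0.21) and with its size factors in edgeR (0.17, adjusted p = 0.063). The same held for upper-quartile scaling (0.15, adjusted p = 0.088) and library size alone (0.18, adjusted p = 0.053). With library size alone GRX3 was called higher at 1.5 h (0.33, adjusted p = 0.00043) and 2 h (0.29, adjusted p = 0.0017). GRX4 was at 47.6 and 42.3 CPM at 0 h, 50.6 and 43.8 CPM at 0.5 h, 33.3 and 41.8 CPM at 1 h, 40.5 and 42.0 CPM at 1.5 h, and 47.1 and 40.5 CPM at 2 h, with log2 fold changes from -0.22 to 0.05. Without 1 h replicate b its 1 h value was called (-0.43, adjusted p = 0.036).

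Genes of glutathione synthesis and reduction had no value beyond 0.52 in size on the log2 scale. Of 3, 2 were higher and 1 lower at 1.5 h (37.5% and 39.1% of all genes). GSH1 encodes the rate-limiting enzyme of glutathione synthesis, glutamate-cysteine ligase. It stood at 135 and 128 CPM at 0 h, 101 and 88.0 CPM at 0.5 h, 86.7 and 95.3 CPM at 1 h, 113 and 118 CPM at 1.5 h, and 122 and 119 CPM at 2 h. All later libraries were below both at 0 h, and the low point was at 0.5 and 1 h, with log2 fold changes of -0.50 (SE 0.07, adjusted p = 1.5e-05) and -0.52 (SE 0.08, adjusted p = 9.2e-06). At 1.5 h it was -0.19 (SE 0.07, adjusted p = 0.021). This call was lost without 0 h replicate a (-0.15) or 1.5 h replicate a (-0.16), and with upper-quartile scaling (-0.1, adjusted p = 0.19). It was also lost with DESeq2 (-0.19, adjusted p = 0.11) and with the 4 libraries of both times alone (-0.15, adjusted p = 0.057). With library size alone the value turned in sign (0.13, adjusted p = 0.083). GSH2, glutathione synthetase, was at 114 and 129 CPM at 0 h, 144 and 141 CPM at 0.5 h, 125 and 129 CPM at 1 h, 143 and 138 CPM at 1.5 h, and 138 and 134 CPM at 2 h. Its value was 0.23 at 0.5 h, 0.21 at 1.5 h and 0.16 at 2 h, and each of these calls was lost without 0 h replicate a (0.14, adjusted p = 0.12, 0.12, adjusted p = 0.14 and 0.08, adjusted p = 0.36), the last also without either 2 h library. GLR1, glutathione reductase, was at 176 and 182 CPM at 0 h, 214 and 204 CPM at 0.5 h, 232 and 216 CPM at 1 h, 239.7 and 233 CPM at 1.5 h, and 244 and 247 CPM at 2 h. It was higher in every KCl library than in both of 0 h, by 0.22 (SE 0.06, adjusted p = 0.0041) at 0.5 h, not called with library size alone (0.14, adjusted p = 0.057), and by 0.46 (SE 0.06, adjusted p = 5.1e-07) at 2 h.

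All 5 glutathione transferase genes were higher at 1.5 h (37.5% of all genes), 4 of them at least 2-fold (14.3%). These enzymes join glutathione to reactive compounds or, in the omega class, reduce with it. ECM4, of the omega class, stood at 16.3 and 12.8 CPM at 0 h, 16.2 and 19.7 CPM at 0.5 h, 61.9 and 56.9 CPM at 1 h, 78.4 and 84.2 CPM at 1.5 h, and 89.2 and 87.7 CPM at 2 h. All libraries from 1 h lay far above the earlier ones, and the log2 fold change was 2.02 (SE 0.13, adjusted p = 7.7e-11) at 1 h and 2.60 (SE 0.12, adjusted p = 9e-14) at 2 h. At 0.5 h it was 0.34, called without 0 h replicate a (0.52, adjusted p = 0.042) or 0.5 h replicate a (0.44, adjusted p = 0.046). GTO3, another omega-class gene, was at 15.3 and 14.4 CPM at 0 h, 9.52 and 11.9 CPM at 0.5 h, 23.6 and 26.2 CPM at 1 h, 46.2 and 48.5 CPM at 1.5 h, and 29.8 and 32.8 CPM at 2 h. It peaked at 1.5 h (1.68, SE 0.13, adjusted p = 4.4e-10). Its 0.5 h value (-0.43) was not called without either 0 h library (-0.39, adjusted p = 0.16 and -0.48, adjusted p = 0.078), without 0.5 h replicate a (-0.32, adjusted p = 0.18) or without 1.5 h replicate b (-0.43, adjusted p = 0.05). GTO1, the peroxisomal omega-class enzyme, was at 30.7 and 22.4 CPM at 0 h, 19.3 and 18.3 CPM at 0.5 h, 26.7 and 24.2 CPM at 1 h, 41.3 and 40.3 CPM at 1.5 h, and 30.3 and 31.5 CPM at 2 h. This gene also peaked at 1.5 h (0.62, SE 0.13, adjusted p = 0.00018). Without 0 h replicate a its 0.5 h value (-0.50) was not called (-0.26, adjusted p = 0.22), nor was it without 0.5 h replicate b (-0.46, adjusted p = 0.071), and its 2 h value (0.23) was called without 0 h replicate a (0.47, adjusted p = 0.0099).

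GTT1 and GTT2 encode the classical glutathione transferases of yeast. GTT1 stood at 40.9 and 30.2 CPM at 0 h, 24.6 and 27.5 CPM at 0.5 h, 54.7 and 58.1 CPM at 1 h, 149 and 135 CPM at 1.5 h, and 173 and 170.0 CPM at 2 h. Its libraries of 1 h, 1.5 h and 2 h lay in 3 separate steps above those of 0 h, with log2 fold changes of 0.68 (SE 0.12, adjusted p = 6.5e-05), 1.99 (SE 0.10, adjusted p = 3.4e-13) and 2.27 (SE 0.10, adjusted p = 4.3e-14). At 0.5 h it was -0.43, not called without 0 h replicate a (-0.19, adjusted p = 0.32) or 0.5 h replicate a (-0.37, adjusted p = 0.062). GTT2 was at 29.0 and 25.1 CPM at 0 h, 19.3 and 18.7 CPM at 0.5 h, 31.1 and 29.1 CPM at 1 h, 67.3 and 63.1 CPM at 1.5 h, and 66.4 and 67.5 CPM at 2 h. It was lower at 0.5 h (-0.52, SE 0.13, adjusted p = 0.002) and higher at 1.5 h (1.26, SE 0.10, adjusted p = 4.6e-10). The GTT1 window (chrIX:424614-424913, minus strand), chosen after its values were seen, is shown because it held the most matches of the 40, 3 stress response elements and 1 Yap1 site.
GTT1: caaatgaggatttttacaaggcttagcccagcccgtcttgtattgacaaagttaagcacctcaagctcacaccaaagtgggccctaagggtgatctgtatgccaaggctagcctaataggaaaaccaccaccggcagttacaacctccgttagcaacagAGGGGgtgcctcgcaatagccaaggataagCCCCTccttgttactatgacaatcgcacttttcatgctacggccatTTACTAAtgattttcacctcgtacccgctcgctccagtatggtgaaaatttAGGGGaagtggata

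Methionine sulfoxide reductases repair oxidised methionine, MXR1 acting on the S form and MXR2, in mitochondria, on the R form. MXR1 stood at 11.6 and 15.1 CPM at 0 h, 13.9 and 13.0 CPM at 0.5 h, 11.4 and 13.9 CPM at 1 h, 44.0 and 54.6 CPM at 1.5 h, and 48.6 and 49.6 CPM at 2 h. Its libraries up to 1 h overlapped and those of 1.5 and 2 h lay far above them, with log2 fold changes of -0.04 at 1 h and 1.91 (SE 0.15, adjusted p = 4.4e-10) at 1.5 h. MXR2 was at 13.7 and 16.2 CPM at 0 h, 14.2 and 18.2 CPM at 0.5 h, 23.9 and 16.0 CPM at 1 h, 28.8 and 26.8 CPM at 1.5 h, and 28.8 and 30.6 CPM at 2 h. It was higher at 1.5 h (0.88, SE 0.18, adjusted p = 0.00017) and 2 h (1.00, SE 0.18, adjusted p = 4.7e-05), and its 1 h value (0.34) was called without 1 h replicate b (0.67, adjusted p = 0.015). MXR2 made up 54.1% and 51.8% of the reads of both genes at 0 h and 39.5% and 32.9% at 1.5 h.

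The genes of the 2 transcription factors moved apart. YAP1 stood at 177 and 166 CPM at 0 h, 149.5 and 154 CPM at 0.5 h, 208 and 213 CPM at 1 h, 329.7 and 321 CPM at 1.5 h, and 318 and 325 CPM at 2 h. Both libraries of each time from 1 h lay above those of 0 h, with log2 fold changes of 0.30 (SE 0.06, adjusted p = 0.00022) at 1 h and 0.92 (SE 0.05, adjusted p = 5.6e-12) at 1.5 h. At 0.5 h it was -0.17, not called without 0 h replicate a (-0.13, adjusted p = 0.16) or either 0.5 h library (-0.16, adjusted p = 0.088 and -0.20, adjusted p = 0.054). SKN7 stood at 141 and 121 CPM at 0 h, 137 and 136 CPM at 0.5 h, 89.4 and 99.8 CPM at 1 h, 72.2 and 82.6 CPM at 1.5 h, and 85.0 and 84.6 CPM at 2 h. Its libraries from 1 h lay below all of 0 and 0.5 h, and the log2 fold change was -0.45 (SE 0.08, adjusted p = 0.00012) at 1 h and -0.74 (SE 0.08, adjusted p = 8.1e-08) at 1.5 h, the largest fall of the 40 genes at that time. Its window (chrVIII:512332-512631, plus strand) held 1 Yap1 site and no stress response element.
SKN7: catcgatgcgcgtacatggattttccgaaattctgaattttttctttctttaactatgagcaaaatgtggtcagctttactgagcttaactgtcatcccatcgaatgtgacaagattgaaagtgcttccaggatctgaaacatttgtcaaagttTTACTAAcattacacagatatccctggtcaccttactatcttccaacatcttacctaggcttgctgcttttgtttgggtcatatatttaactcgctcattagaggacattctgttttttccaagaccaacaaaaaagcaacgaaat

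Grouped by place in the cell, 7 genes were listed as mitochondrial forms (SOD2, CCP1, PRX1, TRX3, TRR2, GRX5 and MXR2). This list leaves out CTA1, whose catalase is also found in mitochondria, and may lack others. All 7 were called higher at 1.5 h, as were 30 of the 40 genes and 37.5% of all genes. At 0.5 h 1 was higher and 2 were lower (26.0% and 27.6% of all genes). At 1 h 5 were higher (28.9%), and at 2 h 6 were (37.8%). Their median log2 fold change was 0.99 at 1.5 h, against 0.90 over the 40 genes and -0.01 over all genes tested.

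Matches to the stress response element were found in 16 of the 40 upstream windows, and in 23.6% of 5980 windows of the same length over the genome. The Yap1 site was in 14 of them, against 6.8% of all windows. Both strands were searched. Both motifs were in 7 windows and neither in 17, and 18 of the 40 windows reach into another coding sequence. At 1 h, 12 of the 16 genes with the element were called higher and 7 of the 24 without it, with median log2 fold changes of 0.64 and 0.01. Over all genes tested, 40.2% of those with the element and 25.4% of those without it were higher at 1 h. At 1.5 h the counts were 15 of 16 and 15 of 24, against 50.7% and 33.4% of all genes with and without the element, with medians of 1.47 and 0.53. At 2 h they were 13 of 16 and 16 of 24, against 49.9% and 34.1%, with medians of 1.52 and 0.46. At 0.5 h, 11 of the 16 and 5 of the 24 were called lower, against 39.3% and 24.1% of all genes, with medians of -0.29 and 0.06. Without 0.5 h replicate a the 0.5 h counts were 8 of 16 and 2 of 24, against 35.8% and 21.0%.

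For the Yap1 site the medians at 1.5 and 2 h with and without a match lay closer together than for the stress response element. At 1 h, 7 of the 14 genes with it and 12 of the 26 without it were higher, against 30.0% and 28.8% of all genes with and without it. At 1.5 h the counts were 10 of 14 and 20 of 26, against 42.0% and 37.1%, with medians of 0.66 and 0.96. At 2 h they were 9 of 14 and 20 of 26, against 42.5% and 37.5%, with medians of 0.94 and 0.92. Several genes that rose held neither motif, among them MXR1, TRX3, GTT2, GRX5 and GRX7. Only the exact letters of each motif were counted, so a site with other letters would be missed. A match is a run of letters in this window and not a measured site.

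**Figure D5:**
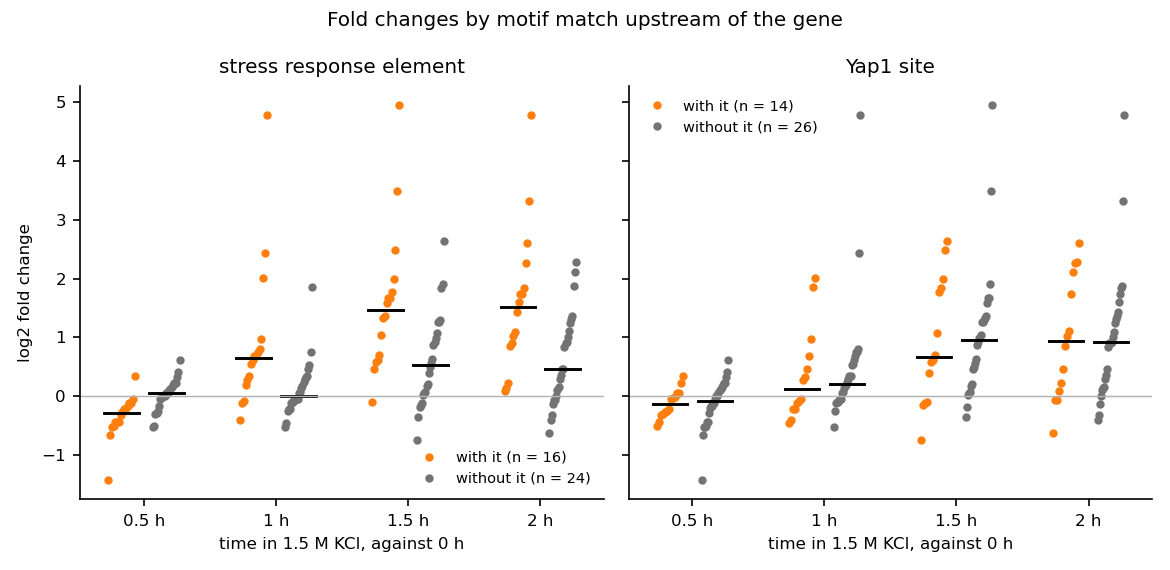
Points give the log2 fold change against 0 h of each of the 40 genes at 4 times, in orange for genes with a match to the motif and in grey for genes without, and black bars give medians. In the left panel, for the stress response element, the medians lie at 0.64 and 0.01 at 1 h and 1.47 and 0.53 at 1.5 h; in the right panel, for the Yap1 site, they lie at 0.12 and 0.21 and at 0.66 and 0.96.

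Of 12 genes that supply NADPH to these enzymes, 7 were called higher and 4 lower at 1.5 h, where 37.5% and 39.1% of all genes were called in those directions. The 4 with the largest changes all rose. GND2, a 6-phosphogluconate dehydrogenase gene, went from 19.5 and 20.1 CPM at 0 h to 369 and 366 at 1 h and 449 and 471 at 1.5 h (4.54, SE 0.08, adjusted p = 3.4e-20). SOL4, of the same pathway, fell from 56.0 and 55.3 to 13.0 and 11.9 CPM at 0.5 h and reached 371 and 358 at 1.5 h (2.71, SE 0.07, adjusted p = 2.1e-17). ALD6, the cytosolic aldehyde dehydrogenase, rose from 449 and 392 to 2645 and 2692 CPM at 1.5 h (2.67, SE 0.06, adjusted p = 1.2e-18), and IDP3, the peroxisomal isocitrate dehydrogenase, from 9.53 and 10.1 to 61.5 and 55.4 CPM at 2 h (2.55, SE 0.15, adjusted p = 6.9e-12). GND1, the relative of GND2, went the other way, from 788 and 770 CPM at 0 h to 297 and 293 at 1.5 h. The median of the 12 was 1.05 at 1.5 h.

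Of 14 genes of cysteine synthesis and of glutathione transport and breakdown, 8 were higher and 4 lower at 1.5 h (37.5% and 39.1% of all genes), with a median of 0.25. The largest changes were those of STR3 (1.67, SE 0.18, adjusted p = 4.6e-08 at 1.5 h), which makes homocysteine from cystathionine, the glutathione exchanger genes GEX1 (1.65, SE 0.19, adjusted p = 1.5e-07 at 2 h) and GEX2 (1.30, SE 0.13, adjusted p = 1.3e-08 at 2 h), and GCG1 (1.19, SE 0.10, adjusted p = 9e-10 at 1.5 h), which degrades glutathione. GEX1 and GEX2 are near-identical, and reads may be shared between them. Of 14 further genes known as Yap1 targets, of which YCF1 is also in the list before, 5 were higher and 3 lower at 1 h, against 28.9% and 28.1% of all genes. At 1.5 h 10 were higher and 4 lower (37.5% and 39.1% of all genes), with a median of 1.02. GRE2, a methylglyoxal reductase gene, rose from 28.1 and 28.8 to 1396 and 1430.4 CPM at 1.5 h (5.63, SE 0.07, adjusted p = 6.1e-22), and YML131W from 18.8 and 10.7 to 732 and 715 CPM (5.61, SE 0.11, adjusted p = 1.7e-19). The old yellow enzyme gene OYE3 reached 4.31 (SE 0.18, adjusted p = 3.1e-14) at 2 h, and HBN1 4.16 (SE 0.18, adjusted p = 3.1e-14) at 1.5 h.

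Among 13 genes of regulators and partners of Yap1, Skn7 and Msn2/4, 7 were higher and 4 lower at 1.5 h (37.5% and 39.1% of all genes). YAP6 and CIN5, which encode relatives of Yap1, were higher, by 2.59 (SE 0.17, adjusted p = 3.6e-11) at 2 h and 1.94 (SE 0.09, adjusted p = 5.5e-13) at 1 h. PSE1, the importin that brings Yap1 into the nucleus, fell from 419.8 and 433 CPM at 0 h to 161 and 164 at 1.5 h (-1.39, SE 0.05, adjusted p = 6.5e-15). MSN4 fell from 142 and 132 to 70.4 and 69.0 CPM at 0.5 h (-0.98, SE 0.07, adjusted p = 6.6e-10) and was still lower at 2 h (-0.63, SE 0.07, adjusted p = 3.8e-08). Its relative MSN2 went from 114 and 112 CPM at 0 h to 100.3 and 86.7 at 0.5 h, and stood at 202 and 204.5 at 1.5 h.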

How the data were processed

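Poly(A) RNA of 10 libraries, 2 at each of 5 times, was counted by the authors over coding sequences. Per the file headers the deposited table holds raw read counts and RPKM values, with coding length. As 2.77% of the deposited counts ended in 0.5, they were taken as estimated counts and rounded to whole numbers. Such counts occurred in 2 of the 40 genes, GRX2 (3 libraries) and GRX6 (5 libraries), which overlap other coding sequences. The deposited RPKM, scaled by the authors to coding length and library reads, served only to check the order of levels. Genome build R64 comes from the submitters' processing notes. Aligner, counter and strandedness were not given in the sources used here, so reads matching near-identical genes may be split in unknown ways. Of 65885 lines, 1302 gene or mRNA lines and 4693 identical copies were left out.

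Counts were tested with edgeR 4.0.16 (R 4.3.3): TMM scaling (factors 0.8765 to 1.1613), filterByExpr (5943 of 5989 kept), a quasi-likelihood fit of all 10 libraries on time, two-sided tests and Benjamini-Hochberg adjustment over all genes tested. The biological coefficient of variation was 4.05%. The standard error (SE) is the absolute log2 fold change divided by the square root of F. Each p rests on the spread between 2 libraries a time, which the design text calls independent experiments. Shares within pairs are given as values and were not tested. Upstream windows of the 40 genes come from the RefSeq R64 genome, where 5981 coding sequences matched by position. Alternatives were DESeq2 1.42.0, other scalings, no filter, rounding down, the replicate block, the 4 libraries compared alone, and leaving out each library. Counting intervals cover counting error only. The code was tested on simulated counts.

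Genes and lists were chosen with earlier results of these data known. All 40 genes may be named, and of each other list the up to 4 genes with the largest called change at any time. GND1 and MSN2 are named besides, as relatives of named genes that went the other way. Windows shown are those of the largest rise and fall at 1.5 h and of near relatives, and that of GTT1, chosen after its values were seen. AAD6, of the Yap1 list, was not analysed here.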

Additional observations from a re-analysis of the deposited data

How the results depend on the processing

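Every gene value was recomputed under 18 alternatives, which gave 2880 comparisons over 160 gene values (40 genes at 4 times). Of these 2787 kept their direction and side of the threshold, 54 lost the call, 35 gained one and 4 reversed, where a change of sign of a value called under neither was counted as kept. Of the 109 calls, 90 were made under every alternative, among them 29 of 30 rises at 1.5 h and 8 of 16 falls at 0.5 h.

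The 4 reversals came with library size alone as the scaling, which moved the median of all genes by 0.32 at 1.5 h, 0.28 at 2 h and -0.08 at 0.5 h. They were CCS1 (0.17 at 1.5 h and 0.22 at 2 h), GPX2 (0.23 at 1.5 h) and GSH1 (0.13 at 1.5 h). With it 68.4% and 68.2% of all calls at 1.5 and 2 h were rises, against 49.0% and 50.5% with TMM, and 36.6% against 48.5% at 0.5 h. The defence genes then had 35 rises and 1 fall at 1.5 h and at 2 h, 23 rises and 5 falls from 0.5 h to 1 h, 37 rises and 0 falls from 1 h to 1.5 h (edgeR, with 0 falls at an unadjusted p under 0.05), and 6 rises and 6 falls from 1.5 h to 2 h. Falls from 1 h to 1.5 h were 2 with DESeq2 and with its size factors in edgeR, and 1 with upper-quartile factors, where 61.1% of all calls were rises against 50.1%. From 1.5 h to 2 h DESeq2 gave 3 rises and 3 falls, upper-quartile factors 6 of each, and rises among all calls were 50.2% and, with library size alone, 49.1%, against 62.1%. The cause was not tested.

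Without each library in turn, rises from 1.5 h to 2 h numbered 2 to 8 and falls 2 to 5, falls at 0.5 h 10 to 16, falls from 0.5 h to 1 h 4 to 8, and falls from 1 h to 1.5 h 1 to 4. Series letters did not pair the libraries: deviations of libraries with the same letter correlated by -0.083 to 0.176 over 10 pairs of times. With the letter as a replicate block, 31 genes rose and 3 fell at 1.5 h, and 20 rose and 4 fell at 1 h, the calls gained being TRX1 (0.18 at 1.5 h) and GRX1 (0.20 at 1 h), and no other call of the 40 genes against 0 h changed. Order by level per kilobase at 0 and 1.5 h was the same with the deposited RPKM in 80 of 80 ranks. Depth limits SRX1 most, with 17 and 13 reads at 0 h, and 2 libraries a time limit all tests.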

Other observations

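Genes of copper handling and metallothionein were mostly lower at 0.5 h and mostly higher from 1.5 h. Of 7, 6 were called lower at 0.5 h (27.6% of all genes) and 3 at 1 h (28.1%), and 5 were higher at 1.5 h (37.5%) and at 2 h (37.8%). At 1.5 h and at 2 h 1 was lower (39.1% and 37.0%). The metallothionein genes CUP1-1 and CUP1-2, near-identical copies between which reads may be shared, went from 1302 and 1336 and 1304 and 1320.0 CPM at 0 h to 439 and 489.8 and 429.8 and 495 CPM at 0.5 h (log2 fold changes of -1.50 and -1.50, adjusted p = 1.2e-12 and 5.2e-12), and to 2193 and 2542 and 2141 and 2551 CPM at 2 h. CRS5, another metallothionein gene, changed by -1.20 (SE 0.17, adjusted p = 6.8e-06) at 0.5 h and 1.25 (SE 0.12, adjusted p = 8.5e-09) at 1.5 h. CCC2, which moves copper into the secretory pathway, changed by -0.43 (SE 0.08, adjusted p = 0.00023) at 0.5 h and 1.19 (SE 0.07, adjusted p = 5.7e-12) at 2 h.

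Of 12 genes of iron-sulfur cluster assembly and iron control, tied to the monothiol glutaredoxins, 5 were higher and 2 lower at 1.5 h, where 37.5% and 39.1% of all genes were, with a median of -0.06. SSQ1, a mitochondrial chaperone gene of cluster assembly, was higher at 2 h (1.03, SE 0.08, adjusted p = 7.6e-10). The scaffold genes ISU1 and ISU2 had their largest changes at different times. ISU1 went from 239 and 229.9 CPM at 0 h to 136 and 124 at 0.5 h (-0.86, SE 0.06, adjusted p = 9.6e-10), and stood at 204.5 and 206 at 2 h. ISU2 went from 73.9 and 78.6 CPM at 0 h to 74.3 and 83.0 at 0.5 h, and to 131 and 139 at 2 h (0.83, SE 0.07, adjusted p = 4.2e-09). YFH1, the frataxin gene, was lower at 2 h (-0.52, SE 0.11, adjusted p = 0.0002).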
